A study of Chlamydomonas reinhardtii with 12 samples.

Results

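The ferredoxin genes FDX2, FDX3, FDX4, FDX5 and FDX6 of the green alga Chlamydomonas reinhardtii were picked by gene symbol from a transcript table of the whole genome. They are 5 of 17741 loci, and all 5 are among the 10915 loci with at least 1 FPKM in at least 1 group, the minimum used here for a locus to count as measured. FPKM is the number of fragments of a transcript, scaled to its length and to the mapped total of the library, so levels of different genes can be set beside each other. Where a locus has several transcripts, the most abundant one stands for it. The main photosynthetic ferredoxin, PETF, and the only other locus with an FDX symbol, FDX9, were described beside the 5 genes.

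Ferredoxins are small soluble iron-sulfur proteins that carry single electrons. In the chloroplast PETF takes electrons from photosystem I in the light and hands them to ferredoxin-NADP reductase, to enzymes of nitrogen and sulfur assimilation, to thioredoxin reductase and, without oxygen, to the hydrogenases. The alga holds several further ferredoxins, and FDX5 is known as the form made when oxygen or copper is lacking, under the copper-response regulator CRR1. This is background and was not measured here.

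Poly(A) RNA was sequenced from 2 strains. One was amiCYG12, a single transformant of the series in which an artificial microRNA lowers the mRNA of the soluble guanylate cyclase gene CYG12, and the other was the wild type, CC-124. Each strain was sampled after 6 h in the dark in sealed flasks, in which the cells used up the oxygen (anoxia), after 6 h in the dark in open beakers (dark aerated), and before these incubations in the light in aerated acetate medium (standard). Each of these 6 groups had 2 biological replicates, 12 libraries in all, and the table gives 1 pooled FPKM per group. No value per library and no spread between replicates can therefore be given, and the depth is unknown. Light, oxygen and the 6 h of incubation all differ between anoxia and standard and cannot be told apart in that comparison. Likewise, light and the 6 h of incubation both differ between dark aerated and standard cells. Oxygen and the vessel, a sealed flask or an open beaker, both differ between anoxia and dark aerated cells and cannot be told apart there. CYG12 itself was at 0.429, 0.353 and 0.158 FPKM in amiCYG12 (anoxia, dark aerated, standard) and at 2.46, 3.23 and 0.132 FPKM in the wild type. It was lower in amiCYG12 in both dark incubations, and at this level no strain difference was tested under standard conditions.

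"Rose", "fell" and "called" are used only where the authors' deposited table marks a comparison as significant, which it does up to a q-value of 0.0499, and a locus "not tested" is one for which the table gives no test. Log2 values are the log2 of the ratio of pooled FPKM, each plus 1, unless the authors' deposited table is named. That scale understates the change of genes near or below 1 FPKM. For FDX3 to FDX6 the standard error of a log2 change implied by the deposited p-values lay between 0.339 and 0.416, with a median of 0.360 over 31 gene and comparison pairs. None was recovered for the 4 called changes of FDX5, whose p-values are the smallest the authors list. Nor was one recovered for FDX4 between dark aerated and standard amiCYG12 cells. The smallest called log2 change of any measured locus in the authors' deposited table, which adds nothing to the FPKM, was 0.861 to 0.890 in size, depending on the comparison. With 1 added, the log2 values of called genes of low FPKM can be smaller.

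The 5 genes lie on 5 chromosomes of genome version 5.5. FDX5 (Cre17.g700950) spans positions 704737 to 706717 of chromosome 17, FDX2 (Cre16.g658400) 2194002 to 2195908 of chromosome 16 and FDX6 (Cre03.g183850) 5317759 to 5320038 of chromosome 3. FDX3 (Cre06.g306350) lies at 8338012 to 8339406 of chromosome 6, and FDX4 (Cre07.g334800) at 3332118 to 3334805 of chromosome 7. FDX4 has 2 annotated transcripts, of which 1 held 96.4 to 98.5 percent of the FPKM of the locus in the 6 groups. Its annotated span overlaps that of Cre07.g334776 by 656 bases, and that locus had no more than 0.0413 FPKM in any group. The span listed for FDX4 beside the deposited FPKM is wider, 3323584 to 3334805. It takes in Cre07.g334750, which had 0.749 to 2.06 FPKM. Sequences of these genes were not analysed here.

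FDX5 was a scarce transcript in aerated cells of both strains and one of the most abundant transcripts of the genome under anoxia. It had 1684 FPKM in amiCYG12 under anoxia, 2.84 FPKM in dark aerated cells and 3.74 FPKM in standard cells. Wild-type cells had 2691 FPKM under anoxia, 2.57 FPKM dark aerated and 3.46 FPKM standard. Both anoxic groups were thus far above all 4 aerated groups, whose values lay between 2.57 and 3.74 FPKM. Among the 10915 measured loci, ordered from the highest level, FDX5 stood at place 79 in anoxic amiCYG12 cells and 72 in anoxic wild-type cells. In dark aerated cells it stood at 5631 in amiCYG12 and 6135 in the wild type, near the middle of the order.

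Between anoxia and dark aerated cells the ratio of pooled FPKM of FDX5 was 593 in amiCYG12 and 1045 in the wild type. On the log2 scale FDX5 rose by 8.78 in amiCYG12 and by 9.56 in the wild type, and both comparisons had a p-value of 5e-05 and a q-value of 0.000623 in the authors' deposited table, the smallest values it holds. Against standard cells it rose by 8.47 in amiCYG12 and 9.24 in the wild type. These 2 comparisons in each strain share the anoxic group. On this scale, which holds down genes listed at or near 0 in air, no measured locus of the wild type rose more than FDX5 in either comparison with anoxia, and the next, Cre08.g372200, rose by 7.48 against dark aerated cells. In amiCYG12 FDX5 came second on this scale, after the same locus, which rose by 10.09. Cre08.g372200 has no symbol in the table, was named after its values were seen, and had 2135 FPKM in anoxic amiCYG12 cells and 2105 FPKM in anoxic wild-type cells.

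After 6 h of darkness with air there was no called change of FDX5. Its log2 change in dark aerated against standard cells was -0.30 in amiCYG12 (q = 0.537 in the authors' deposited table) and -0.32 in the wild type (q = 0.483 in the same deposited table). In the authors' deposited table these changes are -0.40 in amiCYG12 and -0.43 in the wild type, with implied standard errors of 0.416 in amiCYG12 and 0.402 in the wild type.

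**Figure D1:**
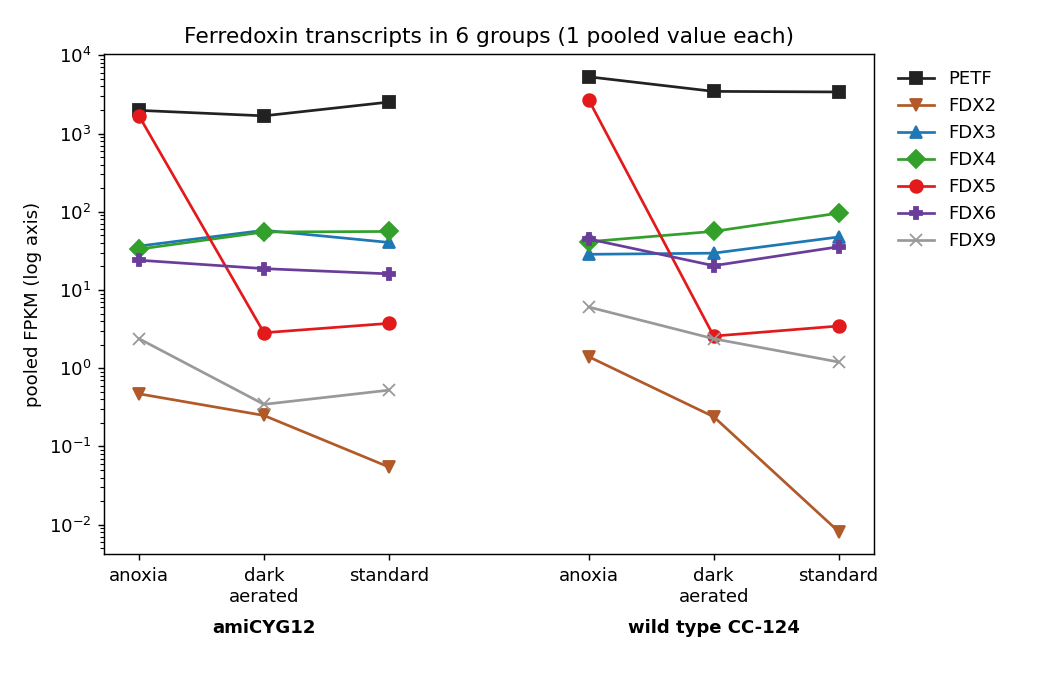
Pooled FPKM (log axis) of the 7 ferredoxin genes in the 6 groups, 1 pooled value per point, with lines joining the incubations of 1 strain. FDX5 stands at 1684 and 2691 FPKM in the anoxic groups of amiCYG12 and the wild type and at 2.57 to 3.74 FPKM in the other 4 groups, while PETF stays between 1684 and 5311 FPKM.

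PETF, the ferredoxin of the light reactions, was the most abundant ferredoxin transcript in every group. It had 1979 FPKM in amiCYG12 under anoxia, 1684 FPKM dark aerated and 2525 FPKM standard, and in the wild type 5311, 3460 and 3402 FPKM in the same order. None of its 6 responses to an incubation was called. Under anoxia against dark aerated cells its log2 change was 0.23 in amiCYG12 (q = 0.682 in the authors' deposited table) and 0.62 in the wild type (q = 0.218 in that deposited table). The mRNA of the ferredoxin used in light was thus not called lower after 6 h without light or oxygen, while that of FDX5 was called higher.

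Relative to PETF, FDX5 stood at 85.1 percent in anoxic amiCYG12 cells, against 0.169 percent in dark aerated and 0.148 percent in standard cells. Wild-type cells had 50.7 percent under anoxia, 0.0744 percent dark aerated and 0.102 percent standard. Of the summed FPKM of the 7 ferredoxin genes, FDX5 held 44.8 percent in anoxic amiCYG12 cells and 33.1 percent in anoxic wild-type cells, and 0.0721 to 0.156 percent in the 4 aerated groups. PETF held 52.6 percent in anoxic amiCYG12 cells and 65.4 percent in anoxic wild-type cells. In the aerated groups it held 92.6 to 96.9 percent, so FDX3, FDX4 and FDX6 were minor transcripts in air as well.

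The sum over the 7 genes was 3759 FPKM in anoxic amiCYG12 cells, against 1819 FPKM in dark aerated ones, and 8125 FPKM in anoxic wild-type cells, against 3571 FPKM in dark aerated ones. FDX5 made up 86.6 percent of that difference in amiCYG12 and 59.0 percent in the wild type. PETF made up 15.2 percent in amiCYG12 and 40.7 percent in the wild type, from differences that were not called. In the whole transcriptome the 7 genes took 0.723 percent of all FPKM in anoxic amiCYG12 cells, against 0.353 percent dark aerated, and 1.28 percent in anoxic wild-type cells, against 0.593 percent dark aerated.

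**Figure D2:**
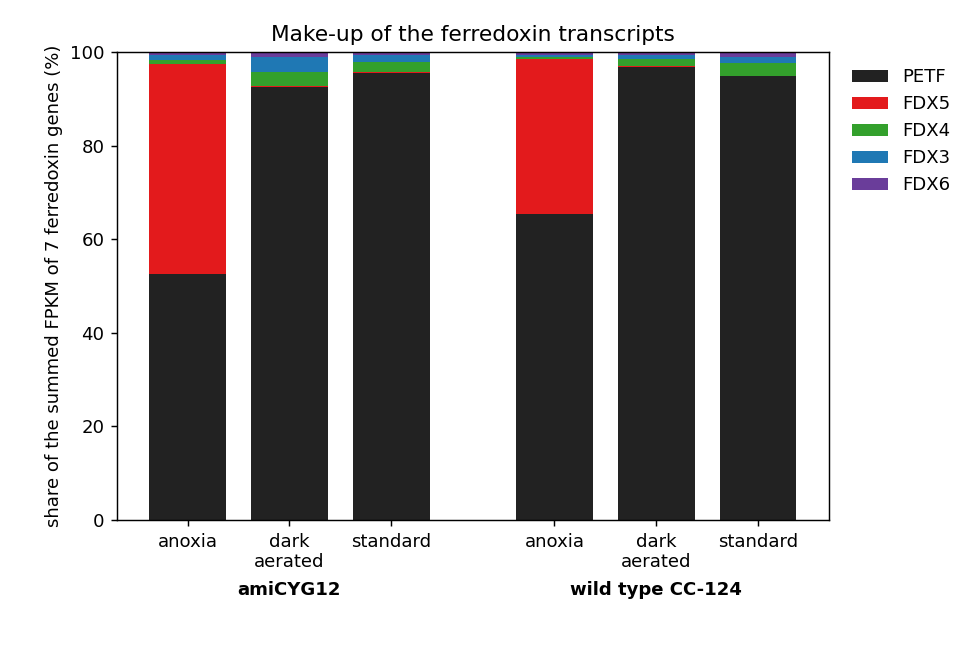
Share of each ferredoxin gene in the summed pooled FPKM of the 7 genes (percent), 1 bar per group. The FDX5 segment fills 44.8 percent of the bar of anoxic amiCYG12 cells and 33.1 percent of that of anoxic wild-type cells, and is a thin line of at most 0.156 percent in the other 4 bars. FDX2 and FDX9 are included in the sum but are too small to be seen.

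FDX2, known as the closest relative of PETF, was the least abundant ferredoxin transcript in all 6 groups. It had 0.471 FPKM in anoxic amiCYG12 cells, 0.249 FPKM dark aerated and 0.0546 FPKM standard. Wild-type cells had 1.40 FPKM under anoxia, 0.240 FPKM dark aerated and 0.00816 FPKM standard. Only the anoxic wild-type value reached the minimum of 1 FPKM, so FDX2 counted as measured through that group alone. In the wild type it rose under anoxia against dark aerated cells by 0.95 on the log2 scale, and the authors' deposited table, without a pseudocount, gives a log2 change of 2.55 (p = 0.00085, q = 0.00654). Against standard cells its own log2 value of 1.25 was not called, with a q-value of 0.433 in the authors' deposited table. Its other 4 responses, 3 of them in amiCYG12, were not tested. The sources used here do not say how reads that match both FDX2 and PETF were counted, and the part of such reads in these low values was not tested.

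FDX6 was the only other member that rose under anoxia, again with a call in the wild type. It had 24.0, 18.8 and 16.1 FPKM in amiCYG12 under anoxia, dark aerated and standard conditions, and 44.8, 20.5 and 35.7 FPKM in the wild type. Under anoxia against dark aerated cells it rose by 1.10 in the wild type (p = 0.00155 and q = 0.0105 in the authors' deposited table), and its log2 change in amiCYG12 was 0.34 (q = 0.521 in that deposited table). The difference between the strains in this response was not tested. Against standard cells FDX6 was not called in either strain under anoxia, with log2 changes of 0.55 in amiCYG12 and 0.32 in the wild type. In the wild type its value for dark aerated cells was below both others, with a log2 change of -0.77 against standard cells that was not called (q = 0.0855 in the authors' deposited table).

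FDX3 and FDX4, with 28.6 to 96.0 FPKM, did not rise under anoxia in either strain. FDX4 had 33.3, 55.2 and 56.0 FPKM in amiCYG12 under anoxia, dark aerated and standard conditions, and 41.5, 56.2 and 96.0 FPKM in the wild type. Its lowest value in each strain was that under anoxia. It fell by 1.19 on the log2 scale under anoxia against standard cells in the wild type (p = 0.0009 and q = 0.00684 in the authors' deposited table). In amiCYG12 the same comparison gave -0.73 and was not called, with q = 0.163 in the authors' deposited table, and the strain difference in it was not tested.

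FDX3 had 36.4, 58.0 and 40.6 FPKM in amiCYG12 under anoxia, dark aerated and standard conditions, and 28.6, 29.6 and 47.6 FPKM in the wild type. None of its 6 responses was called. Its highest value was the dark aerated one in amiCYG12 and the standard one in the wild type. In dark aerated against standard cells its log2 change was 0.51 in amiCYG12 and -0.67 in the wild type, and the difference between these responses was not tested.

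FDX9, for which the table gives no description, was near the lower end of the levels but was called in both strains. It had 2.39 FPKM in anoxic amiCYG12 cells, 0.345 FPKM dark aerated and 0.524 FPKM standard, and 6.06, 2.38 and 1.20 FPKM in the wild type in the same order. It rose under anoxia against dark aerated cells by 1.33 in amiCYG12 and by 1.06 in the wild type. FDX5 and FDX9 were the 2 genes of the 7 that were called higher under anoxia in both strains and against both aerated groups.

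Counted over the 5 genes, 1 of the 4 tested rose in anoxic amiCYG12 cells against dark aerated ones, where 25.8 percent of all tested loci were called and 12.9 percent called higher. In the wild type 3 of 5 rose and none fell, where 14.8 percent of all tested loci were called and 6.88 percent called higher. One of these 3 is FDX2, which counts as measured only through the anoxic wild-type group in which it is high, and nothing is read from its part in the count. With a minimum of 5 FPKM, which leaves out FDX2, 2 of 4 rose. The median log2 change of the 5 was 0.24 in amiCYG12 and 0.95 in the wild type. Both are the value of FDX2 itself, so nothing is read from these medians either. The medians over all measured loci were -0.02 in amiCYG12 and -0.01 in the wild type. Between dark aerated and standard cells none of the 4 tested genes was called in either strain, where 13.9 percent of all loci were called in amiCYG12 and 11.0 percent in the wild type. At an unadjusted p-value under 0.05 the authors' deposited table gives 0 of the 4 in amiCYG12 and 3 of the 4 in the wild type, FDX3, FDX4 and FDX6. Between anoxic and standard cells 1 of 4 rose in amiCYG12, where 24.9 percent of all loci were called and 9.27 percent called higher. Wild-type cells had 1 of 5 that rose and 1 that fell, where 27.4 percent of all loci were called, 11.5 percent higher and 15.9 percent lower.

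**Figure D3:**
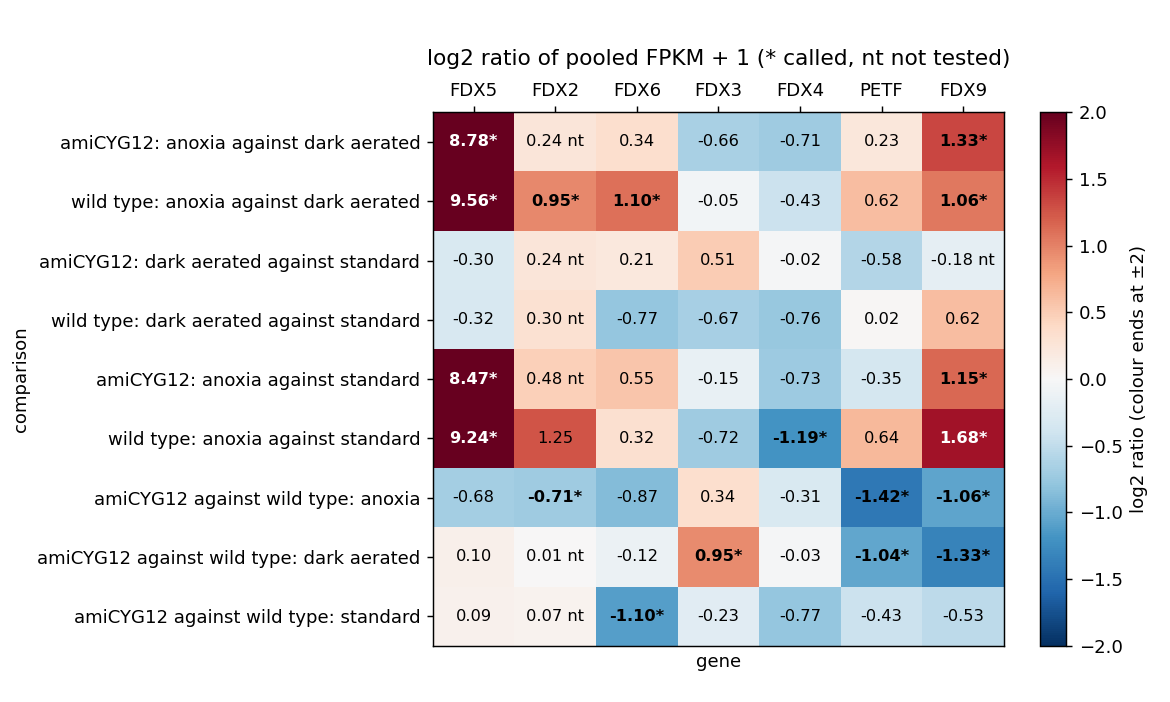
Log2 ratio of pooled FPKM plus 1 for the 7 ferredoxin genes (columns) in the 9 comparisons of the authors' deposited table (rows). The colour ends at 2 in either direction, an asterisk marks a call and nt a comparison that was not tested. The FDX5 column holds called values of 8.47 to 9.56 in the 4 comparisons of anoxia with an aerated group and values between -0.68 and 0.10 without a call in the other 5.

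FDX5 was not called between the strains in any incubation. Under anoxia, with 1684 FPKM in amiCYG12 and 2691 FPKM in the wild type, the log2 ratio was -0.68 (p = 0.0615 and q = 0.171 in the authors' deposited table). In dark aerated cells it was 0.10 and in standard cells 0.09. The implied standard error of the anoxic difference was 0.362.

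PETF, in contrast, was lower in amiCYG12 in both dark incubations. Under anoxia the log2 ratio of amiCYG12 to the wild type was -1.42 (q = 0.00244 in the authors' deposited table), and in dark aerated cells it was -1.04 (q = 0.0222 in that deposited table). In standard cells it was -0.43 and not called. The higher percentage of FDX5 relative to PETF in anoxic amiCYG12 cells stands beside a called lower level of PETF and an uncalled lower level of FDX5. Whether the ratio of the 2 genes differed between the strains was not tested.

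Of the other members, 1 was called between the strains in each incubation, and each time a different one. FDX2 was lower in anoxic amiCYG12 cells than in anoxic wild-type cells, with 0.471 against 1.40 FPKM, a log2 ratio of -0.71 and a q-value of 0.0314 in the authors' deposited table. FDX3 was higher in dark aerated amiCYG12 cells, with 58.0 against 29.6 FPKM, a log2 ratio of 0.95 and a q-value of 0.0340 in the authors' deposited table. FDX6 was lower in standard amiCYG12 cells, with 16.1 against 35.7 FPKM, a log2 ratio of -1.10 and a q-value of 0.0113 in the authors' deposited table. FDX6 was also lower under anoxia by value, at -0.87, but was not called there (q = 0.0535 in the authors' deposited table). FDX4 was called in none of the 3, and its largest strain difference was -0.77 in standard cells. FDX2 counts as measured only through that wild-type value of 1.40 FPKM, the higher side of its comparison, so nothing is read from its call, and with a minimum of 5 FPKM, which leaves it out, 0 of 4 were called under anoxia. The counts of 1 of 5 under anoxia, 1 of 4 dark aerated and 1 of 4 standard stand beside 14.9, 19.0 and 10.5 percent of all loci called. In the direction of the member called, 9.13 percent of all loci were called lower under anoxia, 8.20 percent higher in dark aerated cells and 5.04 percent lower in standard cells. FDX9 was lower in amiCYG12 under anoxia by 1.06 and in dark aerated cells by 1.33 on the log2 scale, both called.

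Genes that work with ferredoxins in the light were followed by symbol, and 6 of 10 names were found. They were the photosystem I subunits PSAD, PSAE and PSAF, the ferredoxin-NADP reductase FNR1, plastocyanin PCY1, which carries electrons to photosystem I, and PGRL1, which takes part in cyclic electron flow. Between anoxia and dark aerated cells none of the 6 was called in either strain. The authors' deposited table gives 2 of them an unadjusted p-value under 0.05 in amiCYG12 and 0 in the wild type. Their median log2 change in that comparison was -0.65 in amiCYG12 and -0.32 in the wild type, where FDX5 rose by 8.78 in amiCYG12 and 9.56 in the wild type. Of all tested loci 25.8 percent were called in that comparison in amiCYG12 and 14.8 percent in the wild type. Under anoxia against standard cells all 6 fell in amiCYG12 and 4 fell in the wild type, with medians of -1.50 in amiCYG12 and -1.28 in the wild type. Of all tested loci 24.9 percent were called there in amiCYG12, and in the wild type 27.4 percent were called and 15.9 percent called lower. PETF was not called in that comparison in either strain, at -0.35 in amiCYG12 and 0.64 in the wild type. Already in dark aerated against standard cells 2 of the 6 light genes fell in amiCYG12 and 3 fell in the wild type. Their medians there were -0.85 in amiCYG12 and -0.92 in the wild type. Of all tested loci 13.9 percent were called in that dark aerated comparison in amiCYG12 and 11.0 percent in the wild type. Between the strains 5 of the 6 were called lower in anoxic amiCYG12 cells, with a median log2 ratio of -1.19. In dark aerated cells 2 of the 6 were called lower, and in standard cells 4. Of all tested loci 9.13 percent were called lower under anoxia and 5.04 percent in standard cells. In dark aerated cells 19.0 percent were called in either direction. FNR1, which passes electrons from ferredoxin to NADP, was 1 of the 5 lower under anoxia. It had 128 FPKM in anoxic amiCYG12 cells and 519 FPKM in anoxic wild-type cells, a called log2 ratio of -2.02.

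Of 7 names of enzymes that work with or beside ferredoxin in dark and anoxic cells 5 were found. These were the hydrogenases HYDA1 and HYDA2, their assembly factors HYDEF and HYDG, and the pyruvate formate lyase PFL1. Under anoxia against dark aerated cells all 5 rose in amiCYG12 and 4 rose in the wild type, with medians of 2.14 in amiCYG12 and 1.24 in the wild type. The share of all tested loci called higher was 12.9 percent in amiCYG12 and 6.88 percent in the wild type. HYDA1, an enzyme that makes hydrogen with electrons from ferredoxin, had 119.8 FPKM in anoxic amiCYG12 cells, against 7.48 FPKM dark aerated. Wild-type cells had 238 FPKM under anoxia, against 66.2 FPKM dark aerated. Between dark aerated and standard cells HYDA1 was not called in amiCYG12 (7.48 against 11.3 FPKM, log2 -0.54) and rose in the wild type (66.2 against 19.2 FPKM, log2 1.74). FDX5 was called in neither strain there. Under anoxia the level of FDX5 was 14.1 times that of HYDA1 in amiCYG12 and 11.3 times in the wild type, and in the 4 aerated groups it was 0.0389 to 0.380 times.

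Among the loci whose description holds the word ferredoxin, 6 were not ferredoxin genes by symbol. Cre02.g095137, described as a pyruvate-ferredoxin oxidoreductase, an enzyme that reduces ferredoxin with electrons from pyruvate, was the only one of them that rose under anoxia against dark aerated cells. It had 7.63 FPKM in anoxic amiCYG12 cells, 0.196 FPKM dark aerated and 0.136 FPKM standard, and 21.5, 2.46 and 0.165 FPKM in the wild type in the same order. Its log2 change between anoxia and dark aerated cells was 2.85 in amiCYG12 and 2.70 in the wild type. GSF1, the ferredoxin-dependent glutamate synthase, fell by 1.46 in amiCYG12 in that comparison, and in the wild type its log2 change of 0.64 was not called. The second that fell in amiCYG12 was Cre13.g587100, by 0.91. In the wild type Cre12.g559950, described as a mitochondrial adrenodoxin-like ferredoxin, fell by 0.93.

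FDX5 is known as a target of CRR1, a regulator of the copper response that also acts without oxygen. The list of copper-response genes held 9 names, and all 9 were found. Under anoxia against dark aerated cells 5 rose and 1 fell in amiCYG12, and 6 rose and 1 fell in the wild type, where 25.8 percent of all tested loci were called in amiCYG12 and 14.8 percent in the wild type. The coproporphyrinogen oxidase CPX1 rose by 2.92 in amiCYG12 and 4.00 in the wild type, and the cyclase subunit CRD1 by 3.06 in amiCYG12 and 3.09 in the wild type. Copper transport genes CTR1, CTR2 and CTR3 rose by 1.22, 2.12 and 2.40 in amiCYG12 and by 1.31, 2.48 and 2.70 in the wild type. CTH1, known as the counterpart of CRD1 in cells with copper and oxygen, fell by 2.75 in amiCYG12 and fell by 3.53 in the wild type. Cytochrome CYC6 had 11.0 FPKM in anoxic amiCYG12 cells and 0.0470 FPKM in dark aerated ones, which was not called (q = 0.290 in the authors' deposited table). In the wild type it had 50.7 FPKM under anoxia and was listed at 0 in dark aerated cells, and it was called higher. CYC6 reached the minimum of 1 FPKM only in the anoxic groups, where it is high. Nothing is therefore read from its part in the counts of this list. With 1 added to the FPKM, the log2 change of FDX5 was above those of all 9 genes in both strains. Without it no ratio can be given for CYC6 in the wild type, and the order of FDX5 and CYC6 there is not set. CRR1 mRNA had 46.1, 36.6 and 38.3 FPKM in amiCYG12 under anoxia, dark aerated and standard conditions, and 51.5, 51.8 and 51.5 FPKM in the wild type, and was called in none of the 9 comparisons. Copper in the cells was not measured.

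**Figure D4:**
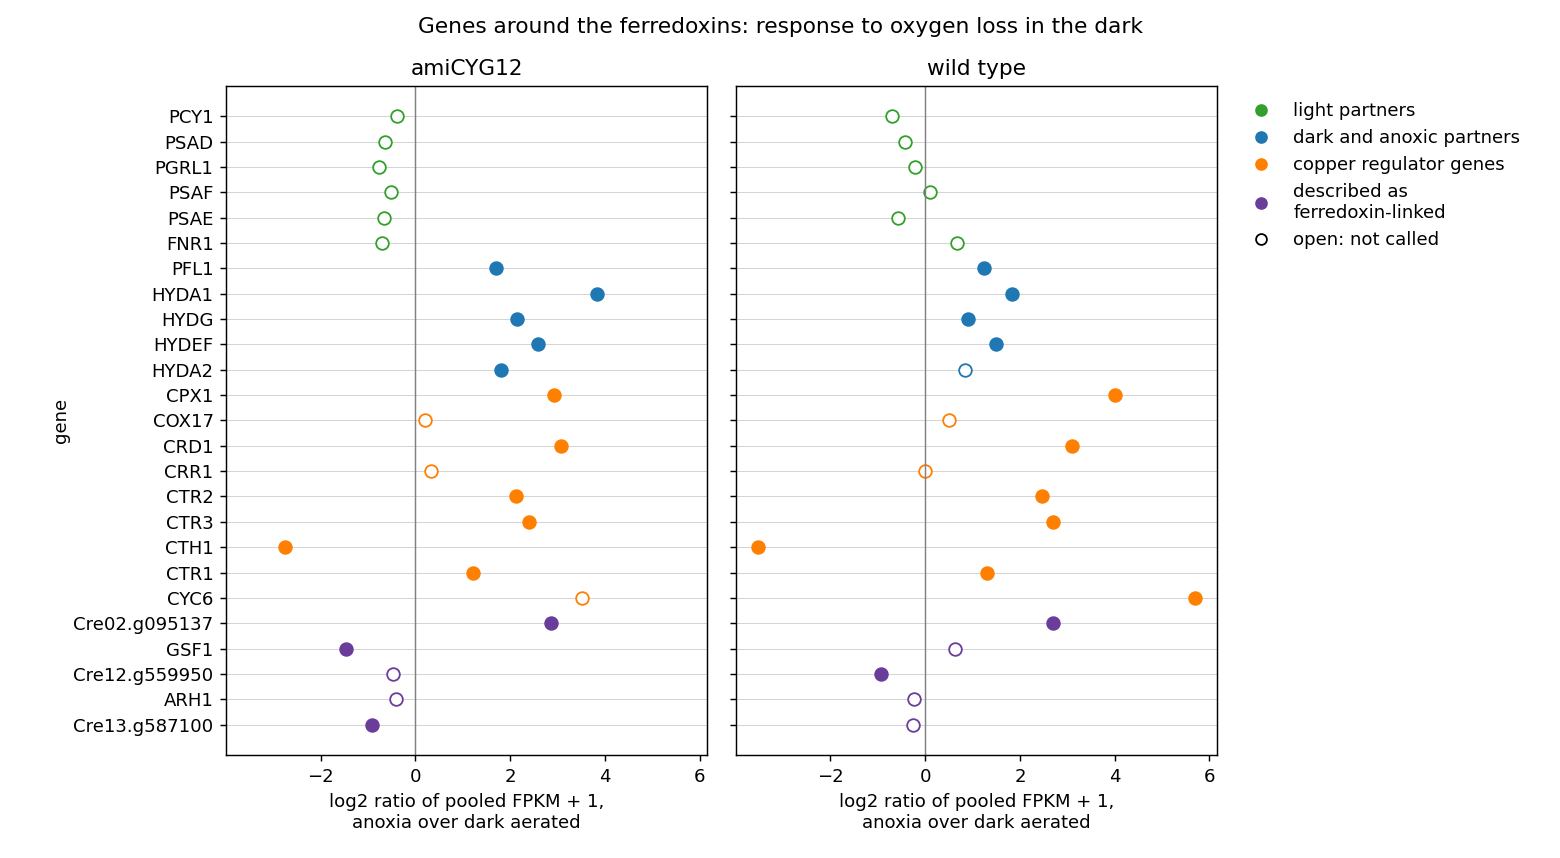
Log2 ratio of pooled FPKM plus 1, anoxia over dark aerated cells, for the listed genes that work with ferredoxins or belong to the copper response (rows), in amiCYG12 (left) and the wild type (right). Filled points were called by the authors and open points were not. All 6 light partners are open and lie between -0.76 and 0.67, whereas the hydrogenase group lies between 0.84 and 3.83.

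Likeness of pattern was measured as Pearson's r of log2(FPKM + 1) over the 6 group values, among loci with a range of at least 2 log2 units. These values share the 2 anoxic groups that set FDX5 apart, so a high r says mainly that a gene was high in both and low in the other 4. Of 944 such loci 445 carried a symbol, and 37 of the 944 had an r with FDX5 above 0.95. The nearest by symbol was HPD1, a 4-hydroxyphenylpyruvate dioxygenase of tyrosine breakdown, with an r of 0.9996. It had 65.0 FPKM in anoxic amiCYG12 cells and 92.3 FPKM in anoxic wild-type cells, and 0.267 to 0.641 FPKM in the aerated groups. The intramembrane metalloprotease RSE1 followed with 0.994, the oxidase GOX7 with 0.993 and the metal transporter IRT2 with 0.990. The next were the cytochrome P450 gene CYP17 with 0.982, the copper transport gene CTR3 with 0.977, the oxidase GOX17 with 0.976 and the plastid sigma factor RPOD with 0.974. HPD1, RSE1 and IRT2 reached the minimum of 1 FPKM only in the anoxic groups, where FDX5 was high as well. Nothing is therefore read from their places. Spearman's rho in place of Pearson's r named 2 of the 8 again, and the Euclidean distance of the centred values named 4. Over 6 values rho is often tied, and ties were ordered by locus name, so the count of 2 may depend on that order.

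**Figure D5:**
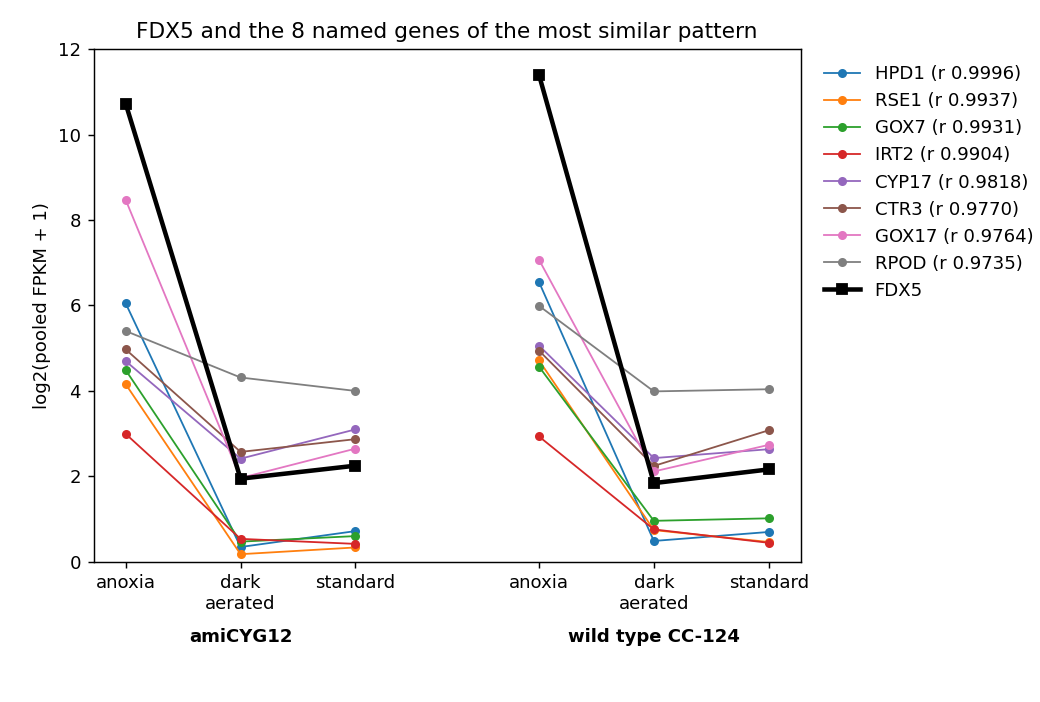
Log2 of pooled FPKM plus 1 of FDX5 (black squares) and of the 8 genes with a symbol whose pattern over the 6 groups had the highest Pearson's r with it (coloured points, r in the legend). All 9 are highest in the 2 anoxic groups, and none of the 8 reaches the anoxic level of FDX5.

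The other members had different nearest genes. For FDX2 these were the splicing factor gene SPL7 (r = 0.975), FFT4 (0.974) and the ribosomal protein gene RPL4 (0.972). For FDX3 they were ARC6 (0.976), the RNA polymerase I subunit gene RPA12 (0.966) and PNP1 (0.960). ARC6 counted as measured only through dark aerated amiCYG12 cells, at 1.03 FPKM. FDX3 was highest in that same group, so nothing is read from the place of ARC6. For FDX4 they were the vitamin K epoxide reductase gene VKE1 (0.995), the protein translocation gene TAT2 (0.995) and OPR36 (0.994). For FDX6 they were the pyruvate kinase gene PYK1 (0.959), the elongation factor gene EFP1 (0.956) and AKC4 (0.955). These came from 2536 loci with a symbol and a range of at least 0.5 log2 units, over 6 values each. Among the ferredoxins FDX5 had an r of 0.84 with FDX2, 0.57 with FDX6, -0.53 with FDX3, -0.76 with FDX4 and 0.28 with PETF. FDX2 counts as measured only through anoxic wild-type cells, where FDX5 was high as well. Nothing is therefore read from the nearest genes of FDX2 or from its r with FDX5.

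The nearest locus on each side of FDX5 on chromosome 17 had at most 1.08 FPKM in any group. Cre17.g700900, 408 bases away, had 0.264 to 0.424 FPKM and was not tested in any comparison. Cre17.g701000, 1063 bases away on the other side, had 0.250 to 1.08 FPKM and was not called between anoxia and dark aerated cells in either strain, although it rose in dark aerated against standard cells in both. The next loci outward were Cre17.g700850, with 0.121 to 0.781 FPKM, and Cre17.g701050, with 5.23 to 9.79 FPKM, which is above the aerated levels of FDX5. Neither was called between anoxia and dark aerated cells, and Cre17.g700850 was not tested in the wild type. FDX2 is separated by 1 base from Cre16.g658350, which had 0.119 to 0.427 FPKM, a range that overlaps that of FDX2. FDX3 lies 98 bases from CHLI1, a magnesium chelatase subunit of chlorophyll synthesis. CHLI1 had 46.5, 125 and 281 FPKM in amiCYG12 under anoxia, dark aerated and standard conditions and 91.6, 102 and 314 FPKM in the wild type, and fell in dark aerated against standard cells in both strains, where FDX3 was not called.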

How the data were processed

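Stranded poly(A) libraries were made, per the labels' protocols. Per the submitters' processing notes, the tools were Cufflinks 2.1.1, TopHat2 2.0.6, Bowtie2 2.0.5, SAMtools 1.2 and CASAVA 1.8.2. The authors deposited 1 table of 19505 transcripts with a pooled FPKM per group and, for each of 9 comparisons, a significance mark with its p-value and q-value and a log2 fold change. The deposited log2 values equal the log2 of the ratio of deposited FPKM to within 5.36e-05. Depth is unknown, and no own test over libraries was possible. The sources used here do not say whether counting used the strand.

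From the table, with pandas 2.3.3 and numpy 2.4.6, log2 ratios with a pseudocount of 1, shares, places and correlations were computed after checks on simulated data. Standard errors were recovered as the deposited log2 change over the normal quantile of the deposited p-value, and they describe the authors' p-values, not measured replicates. Positions came from the RefSeq annotation of Chlamydomonas_reinhardtii_v5.5, which held 19502 of the transcripts. Named genes were the members, other ferredoxins by symbol, the lists by symbol or description, and the genes most alike by Pearson's r. The members and lists were chosen with earlier results of these data known. Sequence features were planned but not analysed here.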

Additional observations from a re-analysis of the deposited data

How the results depend on the processing

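In all, 364 values of single ferredoxin genes were computed again, and 360 were the same by the feature compared. Direction was compared for a pseudocount of 0.1 or 0.01, summed transcripts and rescaled FPKM. Side of the threshold was compared for the other call rules. A change of pseudocount cannot reverse a direction, and of the 7 genes only FDX4 has more than 1 transcript to sum. Nothing is therefore read from those settings. Rescaling kept the direction of 61 values and reversed 2, and each other call rule kept the side of 55 values and lost 1 call. With FPKM rescaled to an equal median ratio, which shifted log2 ratios by at most 0.11 in size, the uncalled value of FDX4 became 0.080 between dark aerated and standard amiCYG12 cells, and 0.034 between the strains in dark aerated cells. Requiring an absolute deposited log2 change of at least 1 left 0 members called between the strains in dark aerated cells, since FDX3 was lost. Under anoxia 0 were left with a minimum of 5 FPKM, which removes FDX2, and 0 with Benjamini-Hochberg adjustment within the comparison, where FDX2 had a q-value of 0.0563. Of the 8 genes named as most like FDX5, Spearman's rho, with ties ordered by locus name, kept 2 and the Euclidean distance kept 4. The FDX5 calls kept their side under the other call rules, and the changes of FDX5 kept their direction with rescaled FPKM. Its shares were computed again only with summed transcripts, which altered FDX4 alone among the 7 genes. Replicates could not be left out in turn, because the table holds 1 pooled value per group. No paired analysis was possible because the deposited columns carry no replicate.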
